A study of Vitis vinifera with 8 samples.

Results

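The carotenoid cleavage genes examined here are the CCD4 pair CCD4a (VIT_02s0087g00910) and CCD4b (VIT_02s0087g00930) and a pair of NCED genes (VIT_19s0093g00550 and VIT_10s0003g03750). These 4 genes were chosen by name, from the enzyme family they encode, with earlier results of these data known. They come from 29798 grapevine genes with a VIT identifier on the array, and 1 probe read each of them. By their identifiers the CCD4 genes lie close together on chromosome 2, and the NCED genes lie on chromosomes 19 and 10. Of the 4, CCD4b had also been singled out by the study on these same arrays, so its difference between the groups is not independent of that choice.

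CCD4 enzymes belong to the carotenoid cleavage dioxygenases, which cut the coloured chains of carotenoids into smaller apocarotenoids, among them scent compounds. In Arabidopsis the CCD4 protein sits in plastoglobules, the lipid droplets of the plastid, and its loss leaves more carotenoid in ageing leaves and seeds. NCED enzymes are the specialised branch of the same family that cuts epoxycarotenoids to xanthoxin, which is turned into abscisic acid (ABA), and this cut is regarded as the committed step of ABA synthesis.

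The OXNAC33 group held 4 plantlets of Vitis vinifera cv Sultana infiltrated under vacuum with Agrobacterium tumefaciens C58C1 that carried VviNAC33, a NAC transcription factor gene, behind the constitutive 35S promoter. The Control group held 4 plantlets infiltrated in the same way with the pK7WG2 vector carrying a non-coding sequence, so both groups had met the bacterium. Plantlets were grown in vitro, were 6 weeks old by the labels, and gave young leaves 7 days after infiltration. Expression from the construct was transient, and by the methods the OXNAC33 plants hybridised were chosen for having most VviNAC33 transcript in quantitative PCR, out of 8 infiltrated (7 for Control). RNA was hybridised to custom Agilent arrays read with 1 dye. All levels below are log2 of the processed intensity of a probe relative to the 75th percentile of its own array, so 0 is the level of that percentile and a difference of 1 is a doubling.

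VviNAC33 itself, the gene that was introduced, gave levels of 1.15, 0.59, -0.13 and -1.14 in OXNAC33 replicates 1 to 4, against 0.14, -0.75, -1.15 and -1.37 in Control replicates 1 to 4. The libraries labelled OXNAC33 replicates 3 and 4 thus lay inside the Control range, replicate 3 just under Control replicate 1 and replicate 4 near the bottom of the range. The difference of means was 0.90 ± 0.52 on the log2 scale (SE; limma unadjusted p = 0.121, adjusted p = 0.666), and every replicate number had its OXNAC33 array higher. With the replicate block the unadjusted p was 0.00751 and the adjusted p 0.280. The differences of the 4 cleavage genes are given without OXNAC33 replicate 4 beside each gene. Without OXNAC33 replicate 3 they were -0.63 for CCD4a, 1.62 for CCD4b, 0.53 for NCED VIT_19s0093g00550 and -0.66 for NCED VIT_10s0003g03750. The share of probes well above background ranged from 73.8% to 84.1% by array. Scanning took place on 3 dates, each with both groups: replicates 1 and 2 on scan date 1, replicate 3 on scan date 2 and replicate 4 on scan date 3. Of the 5 slides, only that of replicate 4 held both groups, so for replicates 1 to 3 slide and group cannot be told apart. A fit with slide as a random block therefore gives more weight to the difference between the replicate 4 arrays. Of 11 leaf marker genes (photosynthesis genes), 10 were well above background on all 8 arrays. Their summed level relative to the 75th percentile was 81.0 to 177 in OXNAC33 and 187 to 344 in Control (linear scale), without overlap. Of the 11 markers, 6 were taken from the study's lists for these arrays, among them the brightest, which weigh most in the sum.

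Across the 26579 probes tested, 0 passed an adjusted p of 0.05 in limma (0%), with 0.406 as the smallest adjusted value. Before adjustment 1049 probes were higher and 1015 lower in OXNAC33 at a p under 0.05, and the methods' t-test also gave 0 adjusted calls. With at least 1.5 fold as well, the threshold of the methods, 643 probes were higher (2.42%) and 826 lower (3.11%). None of the 4 cleavage genes passed the adjusted test, and 1 of the 4, CCD4b, passed the unadjusted threshold in the higher direction. A pairing of arrays by replicate number put 2 probes past the adjusted test and 2354 past the unadjusted threshold, against 1469 without it, and none of the 4 genes was among those past the adjusted test.

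CCD4b was the cleavage gene with the widest separation of the groups. It stood at 2.90, 2.75, 2.39 and 1.19 in OXNAC33 replicates 1 to 4, against 1.27, 0.27, 0.43 and 0.65 in Control replicates 1 to 4. OXNAC33 replicates 1 to 3 all lay above the Control range, while OXNAC33 replicate 4 lay just below Control replicate 1, so the groups overlapped by that array. In unscaled processed intensity the same arrays read 11455, 9545, 9147 and 3972 in OXNAC33, against 6669, 2711, 2211 and 2170 in Control, and the probe was well above background on all 8.

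The mean of CCD4b was 2.31 ± 0.78 in OXNAC33 and 0.66 ± 0.44 in Control (SD, n = 4 each). The difference was 1.65 ± 0.40 (SE), a 3.14-fold higher level, with a 95% interval of 0.74 to 2.56. In limma p was 0.00295 before adjustment and 0.636 after adjustment over all probes, and 0.655% of the probes tested had a larger positive difference. A two-sided exact permutation of the arrays gave p = 0.0571, where 0.0286 is the smallest that 4 against 4 arrays allow. Since the study picked this gene on these arrays, neither p is independent evidence of the direction.

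Each scan date gave a higher mean for CCD4b in OXNAC33, by 2.06 on date 1, 1.96 on date 2 and 0.54 on date 3. Date 3 holds the array labelled OXNAC33 replicate 4, so the small difference there and the low VviNAC33 level fell on the same array, and it is also the only difference between arrays of 1 slide. With slide as a random block the difference was 1.17 (limma unadjusted p = 0.0234). The unadjusted 1.5-fold threshold was passed in all 18 alternatives. Without that array the OXNAC33 range was 2.39 to 2.90, above the Control range of 0.27 to 1.27 without overlap, and the difference was 2.02 (limma adjusted p = 0.0953; exact permutation p = 0.0571, the smallest for 3 against 4 arrays). Over all probes tested, 2.35% did not overlap in the higher direction with all 8 arrays kept, where CCD4b did overlap. The share for 3 against 4 arrays was not computed, and groups with fewer arrays separate more easily. The plot of levels by array shows this spread beside the other genes.

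**Figure D1:**
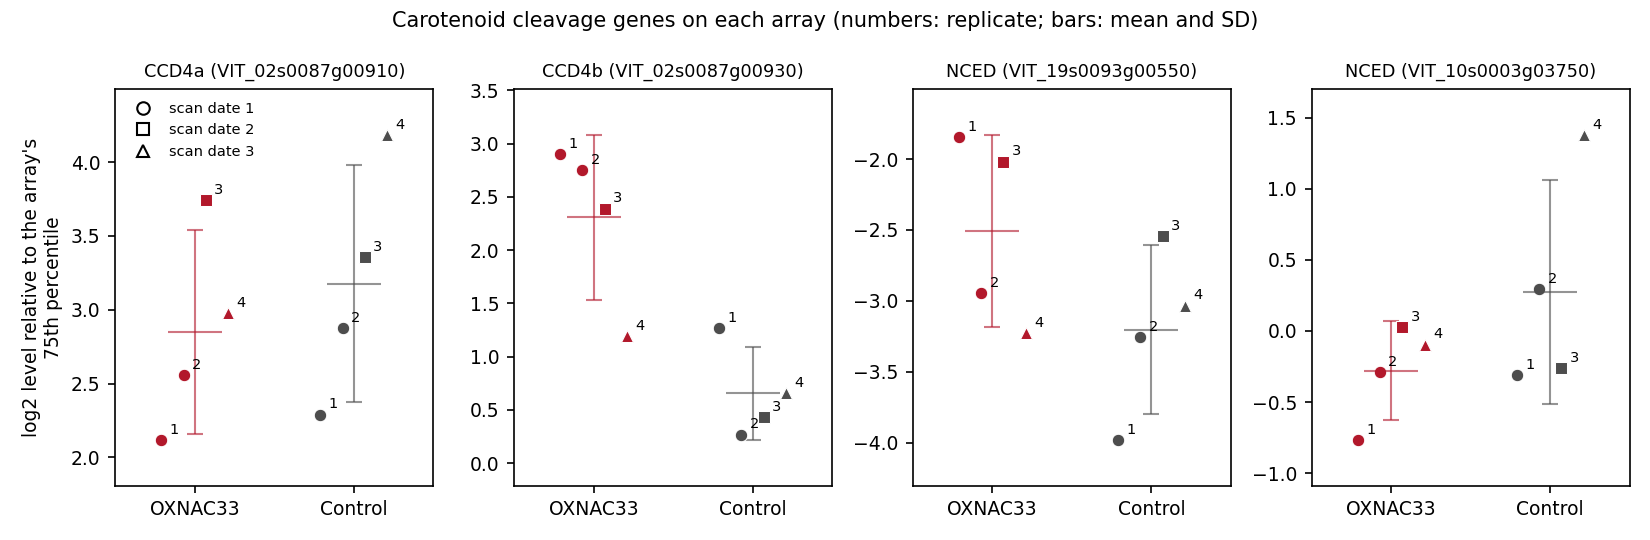
Level of each cleavage gene on every array (y axis, log2, relative to each array's 75th percentile), OXNAC33 left and Control right in each panel; numbers are replicates, shapes are scan dates, and bars are mean and SD (n = 4). CCD4b is the gene with 3 OXNAC33 arrays above all Control arrays (2.39 to 2.90 against at most 1.27), and the groups overlap for all 4 genes. The scales differ between panels, and levels of different probes are not comparable.

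CCD4a, the neighbouring paralogue, showed no such separation. Its levels were 2.12, 2.56, 3.74 and 2.98 in OXNAC33 replicates 1 to 4, against 2.29, 2.87, 3.36 and 4.18 in Control replicates 1 to 4. The groups lay across each other over nearly their whole range, and in both groups replicate 1 was the lowest array.

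For CCD4a the means were 2.85 ± 0.69 in OXNAC33 and 3.18 ± 0.80 in Control (SD, n = 4 each), a difference of -0.33 ± 0.47 (SE; limma unadjusted p = 0.501, adjusted p = 0.855). Its 95% interval ran from -1.40 to 0.74, so neither a modest increase nor a more than 2-fold decrease lay outside it. By scan date the difference was -0.24, 0.38 and -1.21 for dates 1, 2 and 3, so its sign turned between dates. It turned to 0.01 when Control replicate 4, the highest array of the set, was left out, and was -0.37 without OXNAC33 replicate 4. With slide as a random block it was -0.67.

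Of the NCED genes, the one on chromosome 19 averaged higher in OXNAC33 without passing any test. NCED VIT_19s0093g00550 gave -1.84, -2.94, -2.02 and -3.23 in OXNAC33 replicates 1 to 4, against -3.98, -3.26, -2.55 and -3.03 in Control replicates 1 to 4. OXNAC33 replicates 1 and 3 were above every Control array, and replicates 2 and 4 lay within the Control range. The probe was dim but well above background on all 8 arrays, at processed intensities of 185 to 431 in OXNAC33 and 168 to 280 in Control.

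The difference for NCED VIT_19s0093g00550 was 0.70 ± 0.40 (SE), a 1.62-fold higher mean (-2.51 ± 0.68 in OXNAC33 and -3.20 ± 0.60 in Control; SD, n = 4 each). Limma gave p = 0.122 unadjusted and 0.666 adjusted, the 95% interval was -0.23 to 1.62, and the exact permutation p was 0.171. Scan dates 1, 2 and 3 gave 1.22, 0.53 and -0.19. Most of the gap on date 1 came from replicate 1, where the arrays differed by 2.14. Leaving out Control replicate 1 brought the difference to 0.44, and leaving out OXNAC33 replicate 4 brought it to 0.94. The size depended on the setting for this dim probe: 0.45 after normexp background correction and 0.28 with slide as a random block. Under normexp the array that moved most was Control replicate 4, from -3.03 to -2.05.

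NCED VIT_10s0003g03750 averaged lower in OXNAC33, again within the spread between arrays. It read -0.77, -0.29, 0.03 and -0.10 in OXNAC33 replicates 1 to 4, against -0.31, 0.29, -0.26 and 1.38 in Control replicates 1 to 4. Control replicate 4 stood well above the other arrays, and the remaining Control arrays fell within the OXNAC33 range or somewhat over it.

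The difference for NCED VIT_10s0003g03750 was -0.55 ± 0.39 (SE), a 1.47-fold lower mean (-0.28 ± 0.35 in OXNAC33 and 0.27 ± 0.79 in Control; SD, n = 4 each; limma unadjusted p = 0.188, adjusted p = 0.709). Its 95% interval ran from -1.44 to 0.33 and its exact permutation p was 0.257. Scan dates 1, 2 and 3 gave -0.52, 0.29 and -1.48. Without Control replicate 4 the difference shrank to -0.19, and without OXNAC33 replicate 4 it was -0.62. With slide as a random block it was -0.91, which passed the unadjusted 1.5-fold threshold (limma unadjusted p = 0.0453, adjusted p = 0.643). That fit leans on replicate 4, the arrays of scan date 3. The plot of differences sets these values side by side.

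**Figure D2:**
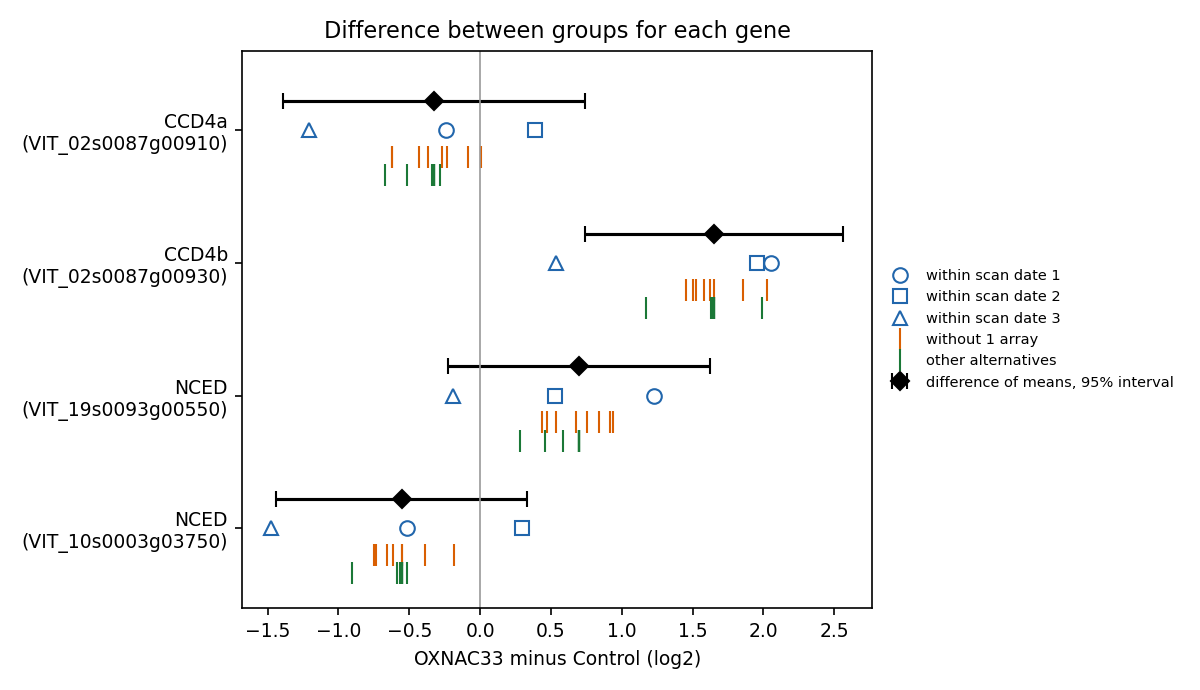
OXNAC33 minus Control on the log2 scale (x axis) for each gene (y axis): diamonds are differences of means over all 8 arrays with 95% intervals from limma, open blue symbols are differences within scan dates, and ticks are values without 1 array (orange) or under the other alternatives (green). For CCD4b every symbol lies above 0 (0.54 to 2.06 within scan dates), while the intervals of the other 3 genes cross 0.

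The members of each pair were also compared within arrays, where a ratio shows only that 2 genes differed unequally. Relative to the Control mean, the log2 ratio of CCD4b to CCD4a was 3.30, 2.71, 1.17 and 0.73 in OXNAC33 replicates 1 to 4, against 1.5, -0.09, -0.40 and -1.01 in Control replicates 1 to 4. OXNAC33 replicates 3 and 4 lay below Control replicate 1, so the groups overlapped, yet every replicate number had its OXNAC33 array higher. The difference was 1.98 (two-sided exact permutation p = 0.0857, also after adjustment over the 2 ratios). Within scan dates it was 2.30, 1.57 and 1.74 (exact permutation p = 0.0833, the smallest that permuting within dates allows). Without OXNAC33 replicate 4 it was 2.40 (exact permutation p = 0.114). Since the study picked CCD4b on these arrays, neither this ratio nor its p-values are independent of that choice.

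Between the NCED genes, the log2 ratio of VIT_19s0093g00550 to VIT_10s0003g03750 was 2.40, 0.82, 1.43 and 0.35 in OXNAC33 replicates 1 to 4, against -0.19, -0.07, 1.2 and -0.93 in Control replicates 1 to 4. Control replicate 3 stood among the OXNAC33 arrays and the other Control arrays lay below them all. The difference was 1.25 (exact permutation p = 0.0857, and 0.0857 adjusted over the 2 ratios). Scan dates 1, 2 and 3 gave 1.74, 0.23 and 1.28, and without OXNAC33 replicate 4 the difference was 1.55 (exact p = 0.114).

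**Figure D3:**
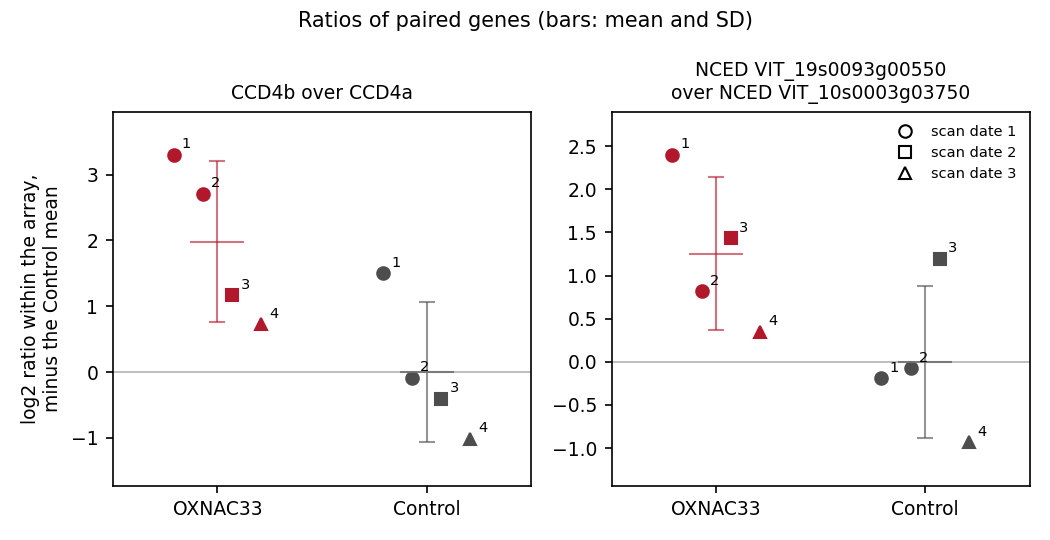
Log2 ratio of 2 genes on the same array minus the mean of the Control arrays (y axis), OXNAC33 left and Control right; numbers are replicates, shapes are scan dates, and bars are mean and SD (n = 4). The CCD4b to CCD4a ratio spans 0.73 to 3.30 in OXNAC33 and -1.01 to 1.5 in Control, and CCD4b was picked by the study on these arrays. The NCED ratio spans 0.35 to 2.40 in OXNAC33 and -0.93 to 1.2 in Control.

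Because the OXNAC33 arrays differed in how much VviNAC33 they showed, each cleavage gene was set against VviNAC33 over the 8 arrays, a comparison of 4 relations chosen after the levels were seen. The permutations shuffled all 8 arrays without regard to group or scan date. The p-values of these relations therefore also take in differences between groups and between dates. CCD4b followed VviNAC33 most closely, with Pearson r = 0.86 (exact permutation p = 0.0104, adjusted 0.0416) and Spearman rho = 0.81 (exact permutation p = 0.0218, adjusted 0.0436). Within OXNAC33 the 4 arrays came in the same order for CCD4b as for VviNAC33, falling from replicate 1 to replicate 4. The scan dates run in that order too, so by order alone VviNAC33 level and scan date cannot be told apart. In Control VviNAC33 also fell from replicate 1 to replicate 4, and CCD4b did not. In the study CCD4b was also listed as a gene whose expression follows VviNAC33 across an atlas of organs. It was picked on these arrays as well, and the OXNAC33 plants were chosen for most VviNAC33 transcript. This relation and its p-values are therefore not independent of those choices. Without the 2 arrays farthest from the median of VviNAC33 (OXNAC33 replicates 1 and 2) r was 0.62 (exact permutation p = 0.199), so the relation rests on those arrays. With group means removed r was 0.89. With scan date means removed it was 0.96, and on the 4 arrays of scan date 1 it was 0.96, and both of these still hold the group difference. The other dates hold too few arrays.

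The remaining genes gave weaker or opposite relations to VviNAC33. For CCD4a r was -0.73 (exact permutation p = 0.0427, adjusted 0.0569; rho = -0.83, exact p = 0.0154, adjusted 0.0436), and without OXNAC33 replicates 1 and 2 it was -0.52 (exact p = 0.308). With scan date means removed it was -0.37. NCED VIT_10s0003g03750 gave r = -0.69 (exact permutation p = 0.0407, adjusted 0.0569; rho = -0.76, exact p = 0.0368, adjusted 0.0490), which was -0.52 without those arrays (exact p = 0.301) and -0.51 with scan date means removed. NCED VIT_19s0093g00550 gave r = 0.32 (exact permutation p = 0.432; rho = 0.26, exact p = 0.536), which was -0.16 without those arrays (exact p = 0.735), 0.06 with group means removed and 0.67 with scan date means removed.

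The summed leaf marker level moved with the groups and with these genes. It was 81.0, 115, 177 and 169 in OXNAC33 replicates 1 to 4, against 187, 258, 269 and 344 in Control replicates 1 to 4. Over the 8 arrays its log2 value had r = -0.89 with CCD4b, 0.73 with CCD4a, 0.77 with NCED VIT_10s0003g03750 and -0.40 with NCED VIT_19s0093g00550, given as a description. Of the 10 markers summed, 6 came from the study's lists for these arrays, so the sum is not independent of that choice. The brightest markers weigh most in a linear sum. These were CAB-1, LHCA1 and PSAO (means of 6.49, 6.20 and 5.55 in Control), all from those lists. The brightest marker from elsewhere, carbonic anhydrase VIT_01s0127g00720, averaged 3.62 there. CCD4b was picked on these arrays too, so its r with the sum is not independent of either choice. In whole leaves fewer cells of a type and less RNA per cell cannot be told apart, and the part of the leaf markers in the values above was not tested.

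**Figure D4:**
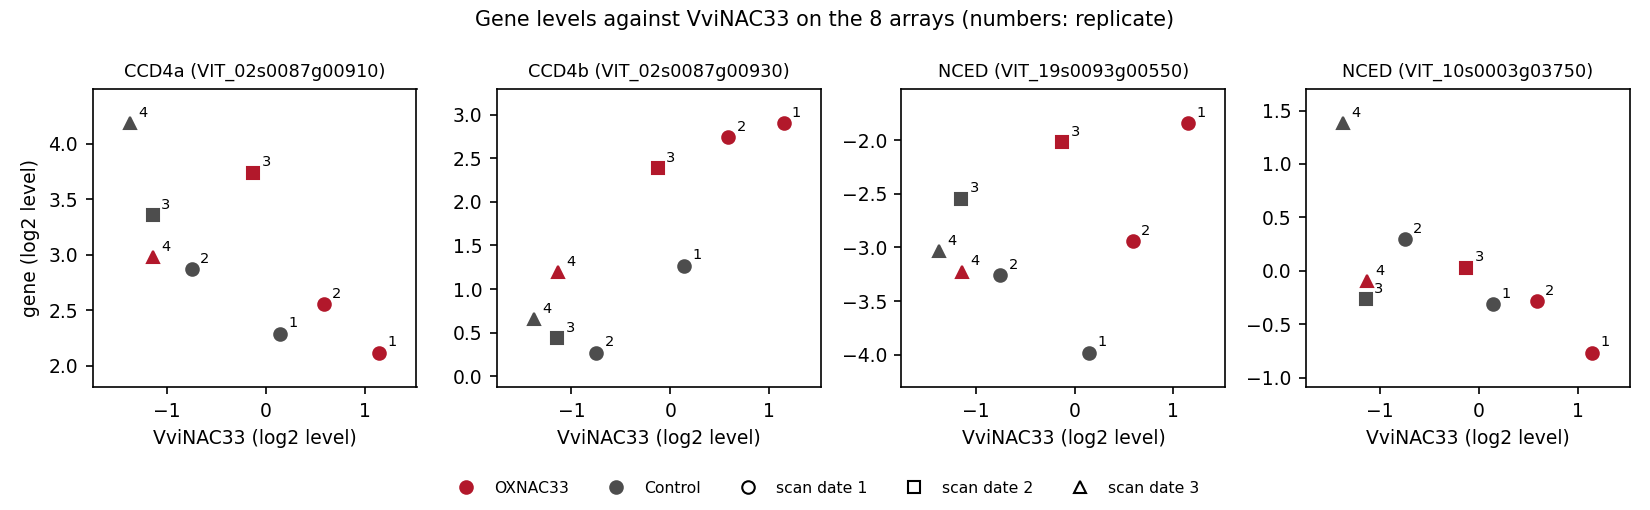
Log2 level of each cleavage gene (y axis) against that of VviNAC33 (x axis) on the 8 arrays; red is OXNAC33, grey is Control, numbers are replicates and shapes are scan dates. CCD4b, picked by the study on these arrays, is higher on the arrays with more VviNAC33 (r = 0.86). OXNAC33 replicates 3 and 4 sit within the Control range on the x axis in every panel.

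Among the cleavage genes themselves, CCD4a and NCED VIT_10s0003g03750 varied together most (r = 0.80 over the 8 arrays), and CCD4b and NCED VIT_19s0093g00550 had r = 0.53. CCD4b had r = -0.41 with CCD4a and -0.54 with NCED VIT_10s0003g03750. These values describe arrays that share the group difference and the scan dates. Over 23798 probes well above background on all 8 arrays, the pattern most like CCD4b was that of VIT_16s0039g01370 (r = 0.988, OXNAC33 minus Control 1.93). It was followed by VIT_00s0370g00010, annotated as a leucine-rich repeat receptor kinase (r = 0.988, 0.64), VIT_15s0048g01080 of unknown function (r = 0.974, 1.16), VIT_06s0004g08250 (r = 0.970, 0.61) and VIT_04s0008g06930, annotated as a transposase (r = 0.969, 0.96).

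For CCD4a the most alike were VIT_08s0056g01560 (r = 0.989), VIT_05s0029g00210 (0.984), VIT_11s0052g00820 (0.981), XLOC_017622 (0.967) and VIT_01s0011g03550 (0.967), a protein of unknown function, and all 5 averaged lower in OXNAC33. For NCED VIT_19s0093g00550 they were VIT_00s0389g00020 (0.967), VIT_05s0020g00840 (0.965), VIT_14s0066g01320 (0.955), VIT_12s0028g03340 (0.950) and VIT_02s0012g01840 (0.947), with differences of 0.10 to 0.46. For NCED VIT_10s0003g03750 they were VIT_09s0002g08640, annotated as an Xa21-type protein kinase (0.948), VIT_04s0008g04110 (0.945), VIT_03s0038g03410, a NAC gene named VviNAC41 (0.945), VIT_15s0046g01460 (0.939) and VIT_11s0037g01190 (0.934), with differences of -0.84 to -0.32. These coefficients rank probes only and carry no test.

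The cleavage genes were then placed in their pathway, over 37 genes of carotenoid supply, other cleavage enzymes, ABA synthesis and breakdown, ABA signalling and plastoglobules. All 37 were on the array and 35 were tested, since PP2C-8 and KEG were too dim. None of the 35 passed the adjusted test, 20 differed in the higher and 15 in the lower direction (54.7% of all probes were higher), and their median difference was 0.14, against 0.04 for all probes. Past the unadjusted 1.5-fold threshold were 1 higher and 3 lower genes, or 4 of 35, where 5.53% of all probes passed. Of these 4, CYP707A2.1 and HVA22c had been listed by the study on these arrays. CYP707A2.1 met the filter on dim probes through its Control arrays (well above background on 4 of 4, against 1 of 4 in OXNAC33), so its call reflects that filter as well.

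Carotenoid supply showed small differences in either direction, and 0 of its 10 genes passed the unadjusted 1.5-fold threshold (4 higher, 6 lower, median -0.11, range -0.45 to 0.47). DXS enzymes open the plastid pathway to isoprenoids, and the 4 DXS genes gave -0.37 (VvDXS), -0.45 (VIT_11s0052g01730), 0.24 (VIT_02s0012g00960) and 0.16 (VIT_09s0002g02050). VvDXS read 1.81, 1.91, 2.1 and 2.18 in OXNAC33 replicates 1 to 4, against 2.25, 2.62, 2.22 and 2.39 in Control replicates 1 to 4, without overlap (1.76% of all probes did not overlap in the lower direction; limma adjusted p = 0.636). VvDXS, VIT_11s0052g01730 and LUT1 were themselves listed by the study on these arrays.

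The gene named squalene/phytoene synthase (VIT_06s0004g00820) differed by 0.38 ± 0.23 and the lycopene cyclase LECY1 by -0.20 ± 0.16 (SE). Phytoene synthase makes the first carotenoid, and whether VIT_06s0004g00820 encodes that enzyme was not tested. Of the xanthophyll genes, LUT1, a carotene hydroxylase, gave 0.47 ± 0.18 and CYP97B2 gave -0.02 ± 0.30 (SE, n = 4 each). ZEP1, which makes the epoxycarotenoids that NCED enzymes cut, gave -0.36 ± 0.51, and NSY1, a neoxanthin synthase, gave -0.37 ± 0.25 (SE, n = 4 each). The probes of VIT_06s0004g00820 and LUT1 were dim but well above background on all 8 arrays. Their processed intensities were 46.0 to 61.9 and 24.5 to 43.8. After normexp background correction the difference was 0.01 for each, so the sizes above depended on the setting. Neither of the CCD1 genes, which cleave carotenoids and apocarotenoids outside the plastid, stood apart: CCD1.1 differed by 0.25 ± 0.66 and CCD1.2 by 0.02 ± 0.58 (SE).

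Downstream of NCED, genes of ABA synthesis and breakdown gave wider differences. AAO3, an aldehyde oxidase of the last step of ABA synthesis, read -0.84, -0.82, -0.82 and -1.82 in OXNAC33 replicates 1 to 4, against -1.31, -2.57, -1.79 and -1.84 in Control replicates 1 to 4. OXNAC33 replicates 1 to 3 lay above all Control arrays and replicate 4 among them (difference 0.80 ± 0.33, SE; 1.74-fold higher; limma unadjusted p = 0.0406, adjusted p = 0.636). With slide as a random block the difference was 0.46 (unadjusted p = 0.289) and with normexp 0.66 (unadjusted p = 0.0634). The methods' t-test did not call AAO3 either. The unadjusted call held when OXNAC33 replicate 4 or Control replicate 1 was left out but not without any of the other 6 arrays. Molybdenum cofactor sulfurase, which activates that oxidase, gave 0.42 ± 0.31 (SE).

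The CYP707A genes encode the hydroxylases that break ABA down. CYP707A2.1 read -7.23, -9.18, -9.47 and -4.11 in OXNAC33 replicates 1 to 4, against -4.96, -3.20, -3.54 and -3.66 in Control replicates 1 to 4, and was well above background on 1 of 4 OXNAC33 arrays (replicate 4) and 4 of 4 Control arrays. The 3 lowest OXNAC33 arrays were therefore not measured above background, and the fitted difference of -3.66 ± 1.1 (SE; limma unadjusted p = 0.0100, adjusted p = 0.636) depends on values there (-1.29 after normexp background correction, and -2.38 with slide as a random block, unadjusted p = 0.0766). CYP707A2.5 read -4.24, -4.28, -3.93 and -5.81 in OXNAC33, against -5.50, -7.09, -5.44 and -5.01 in Control, a difference of 1.19 ± 0.54 (SE; limma unadjusted p = 0.0573), again with OXNAC33 replicate 4 inside the Control range. It was 0.40 after normexp background correction and 0.32 with slide as a random block.

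In ABA signalling, 0 genes were higher and 1 of 17 tested was lower past the unadjusted 1.5-fold threshold, where 2.42% of all probes were higher and 3.11% lower. That gene was HVA22c, named for an ABA-induced barley gene, with -0.64 ± 0.22 (SE; limma unadjusted p = 0.0169, adjusted p = 0.636). Its call was lost without OXNAC33 replicate 3 and with slide as a random block (-0.43, unadjusted p = 0.0815). RD22, a gene induced by drought and ABA in Arabidopsis, had the widest difference, -0.92 ± 0.53 (SE; limma unadjusted p = 0.117). With the replicate block RD22 passed the unadjusted 1.5-fold threshold (unadjusted p = 0.0124, adjusted p = 0.312), the differences by replicate number being -1.04, -1.37, -0.08 and -1.19. The kinase genes SRK2F and SnRK2-8 gave 0.57 ± 0.37 and 0.51 ± 0.20 (SE). Receptor and phosphatase genes (PYL2, PYL4, ABI1, PP2C-3 and PP2C-6) differed by 0.14 to 0.33. The VP1/ABI3 family gene, a B3 type transcription factor, did not overlap between the groups (1 of 17, where 2.35% of all probes did not overlap in that direction). It read -2.15, -1.97, -2.08 and -2.04 in OXNAC33, against -2.59, -2.36, -2.24 and -2.64 in Control (difference 0.40 ± 0.15, SE; limma adjusted p = 0.636). The study had listed this gene on these arrays, so its separation is not independent of that choice.

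Fibrillins are structural proteins of plastoglobules, the place where CCD4 sits in Arabidopsis, and both genes averaged lower in OXNAC33. Fibrillin VIT_06s0004g01220 read -0.20, -0.12, 0.61 and 0.55 in OXNAC33 replicates 1 to 4, against 0.45, 1.15, 0.84 and 0.88 in Control replicates 1 to 4 (difference -0.62 ± 0.25, SE; limma unadjusted p = 0.0393, adjusted p = 0.636). This call was lost with slide as a random block (-0.46, unadjusted p = 0.117) and with the methods' t-test. The call held in 3 of the 8 fits that left out 1 array, those without Control replicate 1, OXNAC33 replicate 3 or OXNAC33 replicate 4. Fibrillin VIT_04s0008g02640 gave -0.54 ± 0.29 (SE; limma adjusted p = 0.652). Both differences run the same way as the median difference of the leaf markers, -0.71. Of the 11 markers, 6 were taken from the study's lists for these arrays, and the tested markers not so taken ranged from -1.02 to 0.17. The part of the leaf markers was not tested. Leaving out OXNAC33 replicate 4 took the number of pathway genes past the unadjusted threshold to 8 of 35, while 9.22% of all probes passed there, against 5.53% with all arrays.

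**Figure D5:**
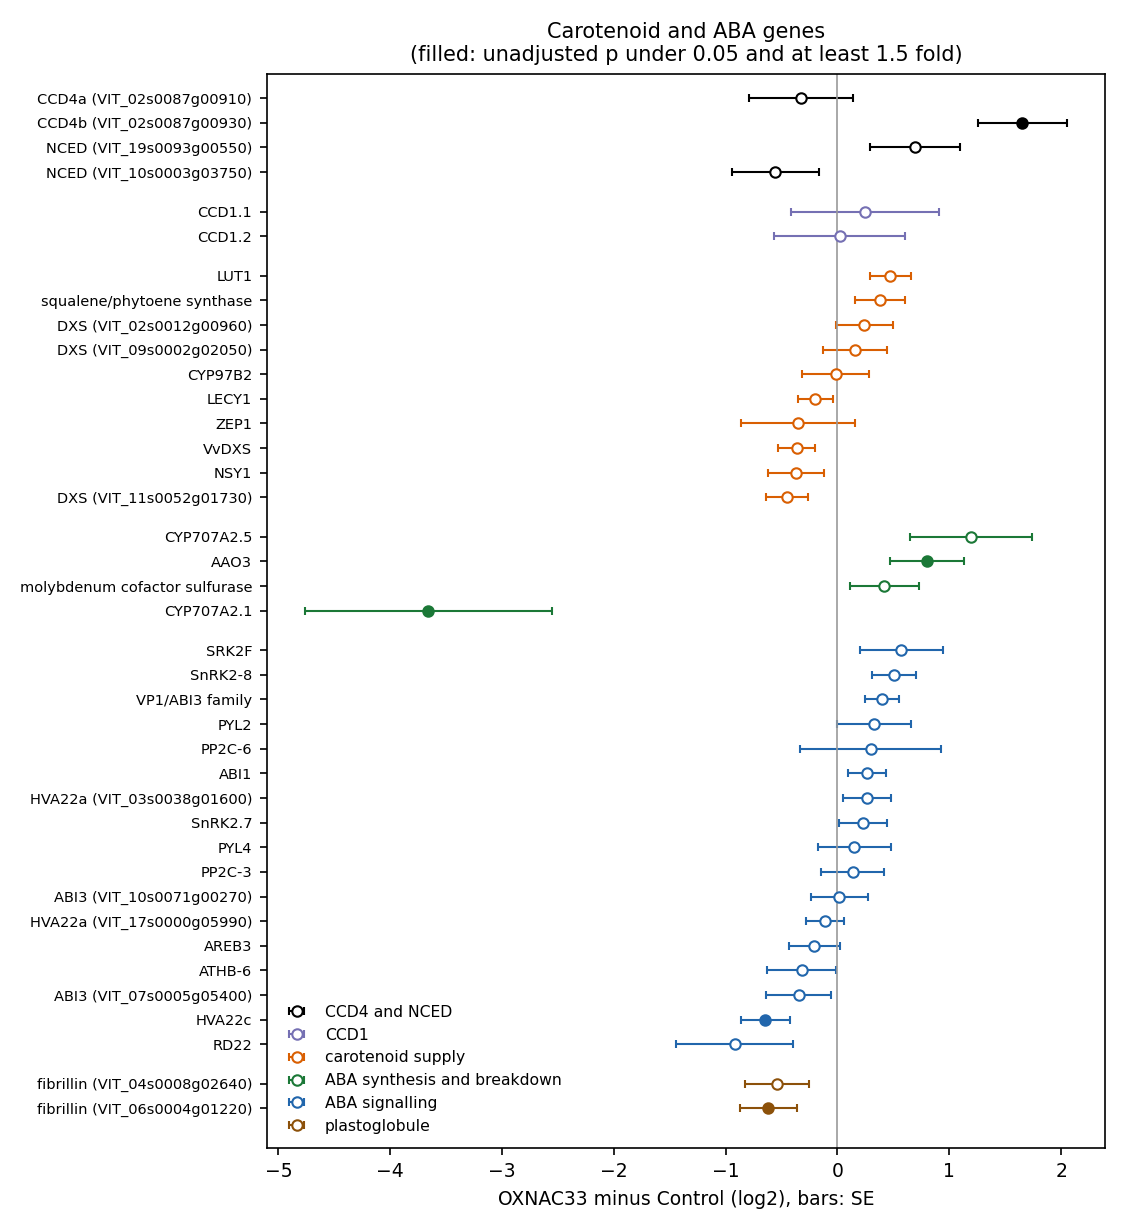
OXNAC33 minus Control on the log2 scale (x axis, points with SE bars from limma, n = 4 each) for the 4 cleavage genes and the 35 pathway genes tested (y axis), coloured by group; filled points passed a p under 0.05 before adjustment and differed by 1.5 fold or more, and 0 passed the adjusted test. CCD4b (1.65) and AAO3 (0.80) are filled on the higher side, and CYP707A2.1 (-3.66), HVA22c (-0.64) and fibrillin VIT_06s0004g01220 (-0.62) on the lower side. CYP707A2.1 was well above background on 4 of 4 Control arrays and 1 of 4 OXNAC33 arrays.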

How the data were processed

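Leaf RNA of 4 OXNAC33 and 4 Control plants was hybridised to custom grapevine arrays. Per the file headers, the authors extracted a processed intensity per spot (1 dye, linear scale) with Agilent Feature Extraction 10.5.1.1, background-subtracted and not scaled between arrays. They also deposited a table of linear intensity for 24631 probes, equal to the processed intensity times 1 factor per array, used as an alternative. Of 34369 probes, 140 outlying spots were left out, 0 were saturated, and 26579 probes well above background on at least 4 of 8 arrays were tested, as log2 processed intensity after dividing by each array's 75th percentile.

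Groups were compared with limma 3.58.1 (R 4.3.3) in a model of group alone, with Benjamini-Hochberg adjustment over all probes. Single values used two-sided exact permutation tests (scipy 1.17.1, Python 3.11.15), and figures matplotlib 3.10.9. The fit was tested on simulated data. Alternatives were replicate number, scan date or slide as a block, normexp background correction (on median intensity, in place of the mean planned; offset 50), quantile normalization, the deposited table, the filter on dim probes, array weights, the methods' t-test and leaving out each array. The number of arrays limits the precision.

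Arrays of replicates 1 to 4 had deviations from their group means that correlated between groups at 0.490, 0.253, 0.496 and 0.102. For the OXNAC33 arrays in that order, the highest correlation with a Control array of another number was 0.476, 0.393, 0.499 and 0.220. This check thus did not single out the replicate numbers as pairs. Pairing by number rests on the titles, the main model did not use it, and separate plants per array come from the methods.

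The members and gene lists were chosen with earlier results of these data known. The genes named are the 4 members, all genes of the supply, cleavage and ABA metabolism lists, in the other lists those past the unadjusted threshold and up to 3 with the widest difference, and the 5 probes most like each member; other genes named were added after their values were seen. Names are those the study pairs with VIT identifiers, and 0 identifiers matched the reference gene table used. Probe sequences were not used here, so whether a probe also reads a close paralogue, such as CCD4a and CCD4b, was not tested.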

Additional observations from a re-analysis of the deposited data

Results flagged for a closer look

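Among the 4 cleavage genes no array stood apart from its group. Of 106 groups of 4 arrays examined over the cleavage genes, the pathway genes, the leaf markers and VviNAC33, 5 held an array set apart, where chance gives about 5.3 (1 in 20). AAO3 in OXNAC33 replicate 4 lay at -1.82, while the other OXNAC33 arrays lay between -0.84 and -0.82, a gap of 0.978 of the range of the group. PP2C-3 in OXNAC33 replicate 3 lay at -0.28, while the other OXNAC33 arrays lay between 0.27 and 0.35, a gap of 0.871 of the range. PP2C-8, too dim to be tested, lay at 0.82 in Control replicate 4 and between -9.90 and -8.18 on the other Control arrays, a gap of 0.840. After normexp background correction, which used median intensity, PP2C-8 lay at -4.75 there and between -5.37 and -4.85 on the other Control arrays. The high value was thus not seen in median intensity. Of the carbonic anhydrase genes among the leaf markers, VIT_01s0127g00720 lay at 3.69 in Control replicate 3 and at 3.59 on each of the other Control arrays (0.935). The other, VIT_17s0000g08460, lay at -6.31 in OXNAC33 replicate 1 and between -9.38 and -9.02 on the other OXNAC33 arrays (0.883).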

How the results depend on the processing

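Over 18 alternatives CCD4b kept its direction (1.17 to 2.02; limma adjusted p 0.0953 to 0.998, unadjusted p 0.000133 to 0.0234), as did NCED VIT_19s0093g00550 (0.28 to 0.94) and NCED VIT_10s0003g03750 (-0.91 to -0.19). CCD4a ranged from -0.63 to 0.0083 when 1 array was left out, turning sign without Control replicate 4 (0.0083). With the replicate block the limma adjusted p was 0.617 for CCD4a, 0.244 for CCD4b, 0.486 for NCED VIT_19s0093g00550 and 0.470 for NCED VIT_10s0003g03750. The block changed no call of these 4 genes but added RD22 to the pathway genes past the unadjusted threshold. OXNAC33 replicate 1 correlated best with the Control array of its own number, and replicates 2 to 4 did not.

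Probes past the adjusted test were 2 with the replicate block and 0 to 2 when 1 array was left out. Past the unadjusted 1.5-fold threshold were 1469 probes, and 2354 with the replicate block, 2403 with the scan date block, 937 with normexp (294 higher and 643 lower, against 643 and 826), 4277 with array weights (2354 higher and 1923 lower), 926 by the methods' t-test (415 higher and 511 lower) and 907 (without OXNAC33 replicate 1) to 2451 (without OXNAC33 replicate 4) when 1 array was left out. Without OXNAC33 replicate 2 there were 933. Of the 35 pathway genes, 4 passed, and 1 with slide as a random block (DXS VIT_02s0012g00960, 0.66, unadjusted p = 0.0445; 0 of the 4 remained), 9 with array weights, 2 by the t-test and 2 to 8 when 1 array was left out. The fit with slide as a random block gives more weight to replicate 4, where DXS VIT_02s0012g00960 differed by 1.25. The cause of these shifts was not tested. Signal over background limits CYP707A2.1, which only 1 of 4 OXNAC33 arrays measured above background.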
